A study of Hydra vulgaris with 113 samples.

Results

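Hydra is a freshwater polyp that regrows a head on a lower piece of the body and a foot on an upper piece. Head formation in this animal is known to depend on an organizer at the mouth tip in which Wnt ligands stabilise β-catenin, and β-catenin then acts on target genes together with TCF, the DNA-binding partner. The small molecule iCRT14 blocks the interaction between β-catenin and TCF. The gene models described here are those that came to be more abundant in head than in foot regenerates late after the cut, and the question put to them was how much of that difference stayed when iCRT14 was present.

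The set held 25 of the 33820 gene models in the RNA table. Counts were divided by the library total and scaled to counts-per-million values (CPM), averaged over the 3 libraries of a group and put on the scale L = log2(mean CPM + 0.5). Of 15653 gene models with a mean of at least 1 CPM in untreated head regenerates at 8 h, a member was at least 1 L unit higher in untreated head than foot regenerates at both 8 h and 12 h, and differed by less than 1 L unit at 0 h. Its rise from 0 h to 3 h was also under 0.7 L units on at least 1 side. The untreated libraries thus chose the members, and their values at 0, 3, 8 and 12 h are given as a description with no test. The tests of the members compare iCRT14 libraries, which the rule did not read. The fit and its filter on low counts also took the untreated 12 h libraries. A further test sets untreated against iCRT14 libraries at 12 h, on a list chosen without any 12 h value.

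Polyps of Hydra vulgaris strain 105, all from 1 strain and with no transgene named in the labels, were bisected at mid-body. The cut end of the lower piece was the head regenerate and that of the upper piece the foot regenerate. Each RNA library pooled about 30 tips, and there were 3 libraries, called biological replicates by the submitters, in each of 14 groups. Untreated head and foot regenerates were sampled at 0, 3, 8 and 12 h. Head and foot regenerates in 5 µM iCRT14 were sampled at 0, 8 and 12 h, and these animals had already been in the inhibitor for 2 h when they were cut, so that their 0 h tips were not inhibitor-free. The controls are labelled untreated, and the labels name no solvent for them.

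Library totals ran from 13460197 to 44132834 estimated counts, with a median of 19042952. The 18 untreated libraries of 0, 3 and 8 h were made with a TruSeq kit, and the 24 others, untreated 12 h and all iCRT14 libraries, with a KAPA kit. The typical gene model varied more within groups of the KAPA kit (median SD of log2 CPM 0.191 to 0.397 per group) than within those of the TruSeq kit (0.139 to 0.181). Within its group, iCRT14 8 h foot replicate 3 stood apart, with a chi-square per degree of freedom of 59.5 and 52.5 against its replicates, which gave 9.52 between themselves. On the first principal components of the KAPA libraries iCRT14 12 h head replicate 3 and untreated 12 h head replicate 1 also lay away from their groups. Without the last, the median untreated 12 h difference of the members was 1.77 L units in place of 1.80. Untreated changes from 8 h to 12 h, and untreated 8 h values against iCRT14 8 h values, therefore cross a change of kit, and its part in them was not tested. Head against foot at any 1 time, and untreated against iCRT14 at 12 h, stay within a kit. Because the tips are bulk tissue, more cells of a type and more RNA per cell cannot be told apart in any result below.

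The gene models carry only numbered identifiers. None of the 25 was matched to a gene symbol, so no protein, pathway role or cell type can be given for any of them, and the tissue could not be checked against named markers. The set is therefore described by its values, with a few identifiers per comparison. The values also set a limit to the name "head-specific". At 12 h untreated foot regenerates still had a mean of at least 1 CPM for 18 of the 25, and the median member stood at 5.34 CPM in foot against 17.6 CPM in head. "Head-biased" describes them more closely. The early condition held on both sides for 19 members, in head alone for 2 and in foot alone for 4.

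In untreated animals the median head-foot difference opened mainly between 3 h and 8 h. The rule itself sets a small difference at 0 h and a large one at 8 h, and 2 members already differed by at least 1 L unit at 3 h. Over the 25 members the median difference was 0.00 L units directly after the cut and 0.19 by 3 h. It had reached 1.25 by 8 h and was 1.80 in the 12 h libraries. At 12 h members lay between 1.05 and 3.54 L units. In mean CPM the median member was 2.84-fold higher in head at 8 h and 4.08-fold higher at 12 h. All 3 head libraries lay above all 3 foot libraries for 25 members at 8 h and for 23 at 12 h, where the remaining 2 overlapped. The share of all gene models with separated libraries was not counted for these groups. The rule chose on the same libraries, so nothing is read from these counts. The share of the 15653 gene models with a difference of at least 1 L unit was 0.811% at 8 h and 0.875% at 12 h, which the rule itself uses and from which nothing is read here.

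Both sides moved while the difference opened, though a fall in foot was common over all gene models. From 0 h to 8 h, within the TruSeq kit, the median member gained 0.92 L units on the head side and changed by -0.41 on the foot side. Head was above its 0 h level and foot below it for 17 members, both sides were above for 7, and both were below for 1. Foot was below its 0 h level for 18 members and for 9825 of the 15653 gene models, whose foot median was -0.09. Head was above its 0 h level for 24 members and for 5735 of the 15653, whose head median was -0.09. The head gain was the larger of the changes for 19 of the 25. At 3 h the 3 head libraries lay above the 3 foot libraries for 10 members and below them for 4, against a background of 10.6% of gene models with head above foot.

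**Figure D1:**
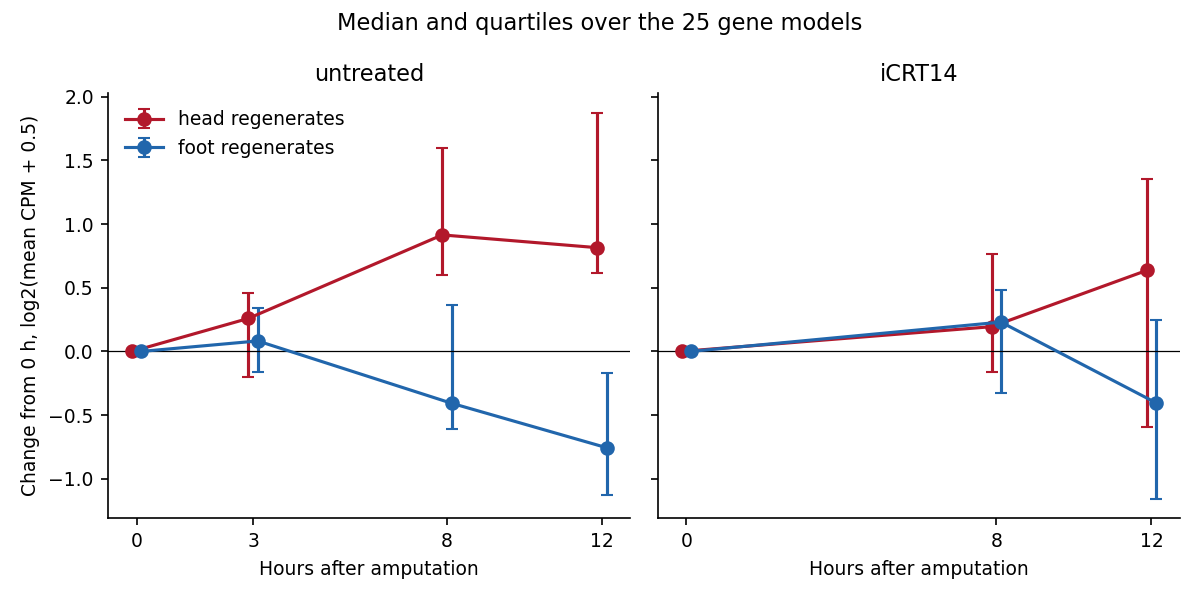
Change from 0 h in L units, log2(mean CPM + 0.5), over the 25 gene models in head (red) and foot (blue) regenerates, untreated on the left and in iCRT14 on the right; the horizontal axes are hours after the cut, points are medians and bars run from the lower to the upper quartile. Untreated medians part by 8 h (0.92 in head, -0.41 in foot), whereas the iCRT14 medians are 0.19 and 0.23 by then and 0.64 and -0.40 in the 12 h libraries; untreated 12 h is the only untreated time made with the KAPA kit.

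The member with the widest untreated difference on the L scale was g33422. It stood at a mean of 56.4 CPM in the untreated 0 h head libraries and at 81.9, 80.6 and 70.1 CPM in the foot libraries. At 3 h foot was the higher side, with 146, 145 and 160 CPM against 71.9, 64.5 and 102 CPM in head. At 8 h the order had turned, with 297, 326 and 306 CPM in head and 45.7, 47.1 and 48.0 CPM in foot. At 12 h head reached 355, 346 and 331 CPM and foot had dropped to 26.4, 28.4 and 32.8 CPM, an 11.8-fold ratio of means. The libraries of the sides did not overlap at any of these times, and foot lay above head until 3 h.

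The second widest was g9994, which followed the same order at a lower level. Its untreated 8 h libraries held 45.2, 47.9 and 47.3 CPM in head against 8.86, 8.17 and 10.2 CPM in foot. At 12 h they held 54.7, 49.8 and 49.6 CPM against 6.28, 8.22 and 6.91 CPM. Both gene models were somewhat lower in head than in foot at 0 h and were far above it from 8 h.

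With iCRT14 present the difference was smaller but did not vanish. At 12 h the median difference was 0.69 L units, between -0.57 and 2.34, where the untreated median was 1.80. Head was higher for 22 of the 25 members, and 8 reached 1 L unit, a size reached by 1.10% of the 15653 gene models. All 3 head libraries lay above all 3 foot libraries for 16 members, against 7.42% of gene models, and below them for 1. The median of all 15653 gene models was -0.09 L units in the same libraries. Without head replicate 3 the members' median was 0.68 L units and 16 again had head above foot.

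**Figure D2:**
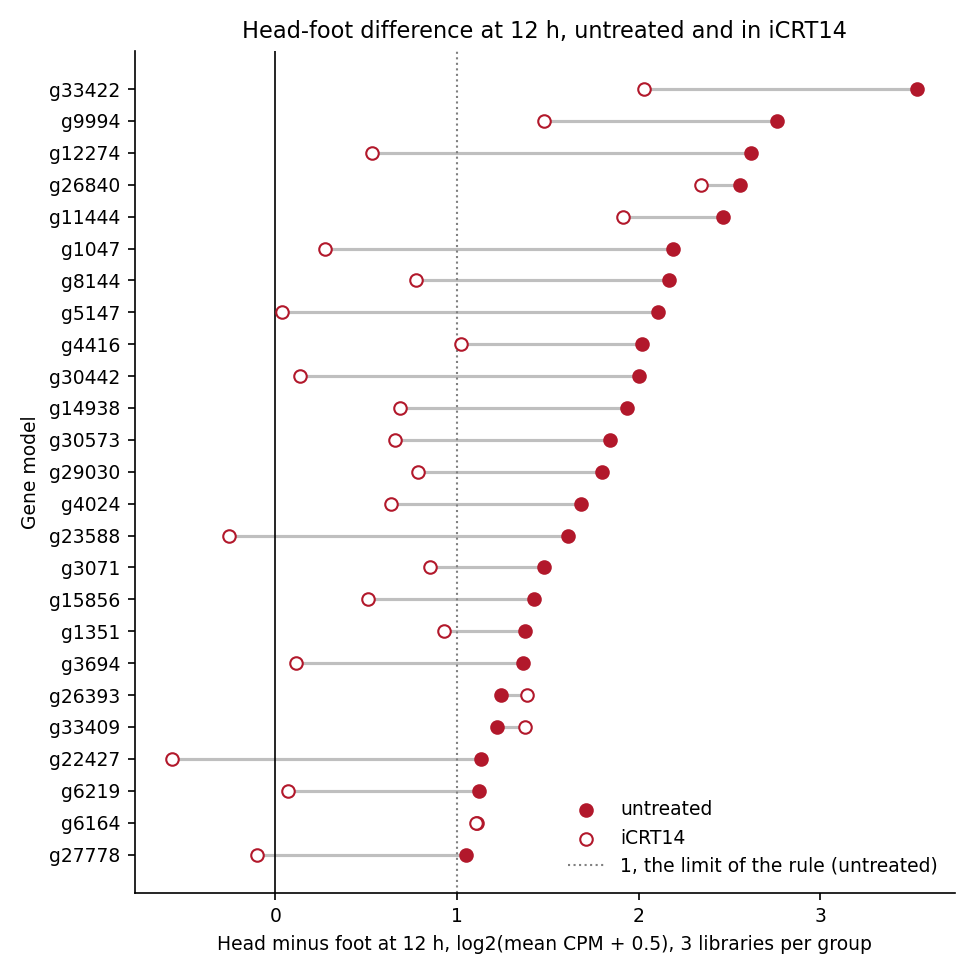
Head minus foot difference at 12 h in L units for each of the 25 gene models, from untreated libraries (filled) and from iCRT14 libraries (open), ordered by the untreated value; each point rests on 3 head and 3 foot libraries, and the dotted line is the limit of 1 that untreated values had to reach. Open points run from -0.57 to 2.34 and lie left of the filled ones for 23 of the 25.

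Per member, the share of the untreated 12 h difference that stayed in iCRT14 had a median of 35.9%. Over the 9 ways of taking the libraries 1 by 1 (1 untreated with 1 iCRT14 replicate number), this median varied with an SD of 5.61 percentage points, from 28.4% to 47.5%. The members were widely spread around it. The difference had turned towards foot in 3, kept 0 to 25% in 6, 25 to 50% in 6 and 50 to 100% in 8, and was at least as large as untreated in 2. Since the untreated 12 h difference chose the members, the share is a description and carries no test. When the 12 h condition was left out of the rule the median share over the resulting 51 gene models was 44.2%.

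In iCRT14 most members were lower in head regenerates than without it. At 12 h the median member was 1.04 L units lower in iCRT14 than in untreated head regenerates, and 22 of the 25 were lower. In foot regenerates the median member was 0.25 L units higher, with 15 of the 25 higher. Members were lower in head and higher in foot in 12 cases, lower on both sides in 10 and higher on both sides in 3. The drop in head exceeded any gain in foot for 20 of the 25. That count includes the 10 lower on both sides, where foot did not gain. Over the 15653 gene models the medians were -0.08 L units in head and -0.13 in foot. These values again rest on the untreated 12 h libraries that chose the members.

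**Figure D3:**
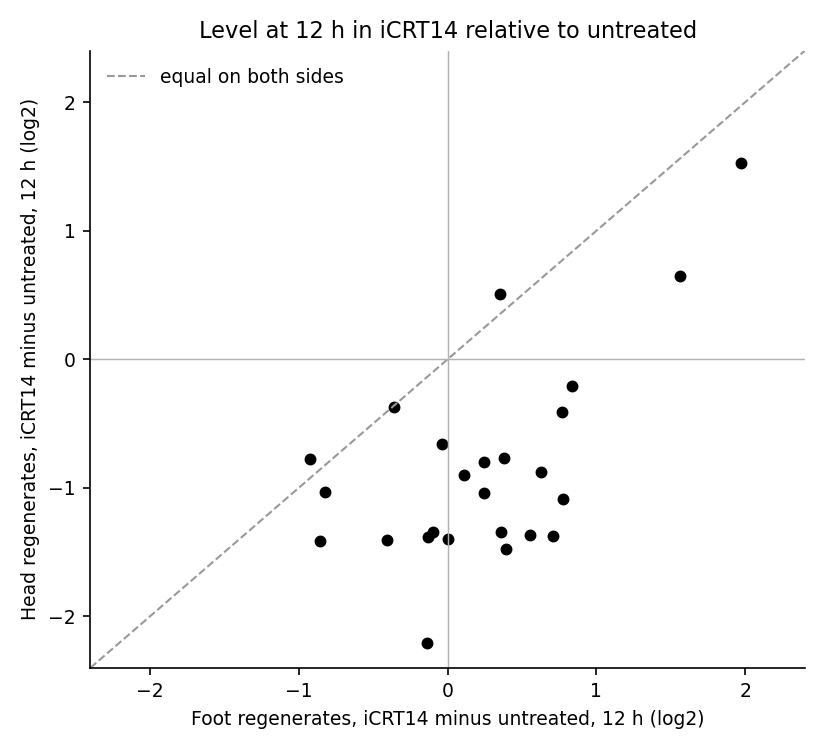
Level at 12 h in iCRT14 minus untreated, in L units, for each of the 25 gene models (1 point each), in foot regenerates (horizontal axis) and head regenerates (vertical axis). Of the points, 22 lie below 0 on the head axis and 15 above 0 on the foot axis, and those below the dashed line lost difference between the sides.

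Head was tested against foot within the iCRT14 libraries with edgeR's quasi-likelihood test, fitted to the 24 KAPA libraries over 19989 gene models, with Benjamini-Hochberg adjustment over all of them and a threshold of 0.05. All 25 members passed the filter on low counts. At 12 h 9 members were higher in head and 0 were higher in foot, where 0.465% of all gene models tested were higher in head and 0.430% in foot. The median log2 fold change of the 25 was 0.77, against -0.05 over all gene models tested. At an unadjusted p under 0.05, 16 members were higher in head and 0 in foot, and DESeq2 called 12 and 0. Over all gene models DESeq2 called 165 higher in head and 148 in foot. The share of all gene models at an unadjusted p under 0.05 was not counted, here or in the comparisons below.

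The strongest of these calls was g33422. Its iCRT14 12 h libraries held 203, 200 and 157 CPM in head and 43.5, 39.9 and 52.7 CPM in foot. Head was well above foot in every library, at a lower head level and a higher foot level than in untreated animals. The log2 fold change was 2.10 ± 0.14 (SE, n = 3 per side, edgeR adjusted p = 5.46e-09), and the ratio of means was 4.12 against 11.8 untreated. Here and below, SE is derived from the edgeR test, as the absolute log2 fold change over the square root of its F statistic. It was not estimated separately. Of its untreated difference 57.4% stayed.

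The widest of the calls was g26840, which stood at 23.3, 19.4 and 22.3 CPM in head and 4.75, 2.37 and 4.50 CPM in foot in iCRT14 at 12 h. Its log2 fold change was 2.57 ± 0.24 (SE, n = 3 per side, edgeR adjusted p = 8.92e-07). Untreated it had 40.9, 47.5 and 46.5 CPM in head and 6.56, 10.0 and 5.09 CPM in foot. Both sides were thus lower in iCRT14, and 91.6% of the difference on the L scale stayed. At 0 h this gene model was already the higher in head, with 24.3, 20.0 and 23.6 CPM against 14.1, 13.4 and 10.1 CPM untreated.

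The other 7 members higher in head at 12 h had log2 fold changes of 0.76 to 2.02. Of the 9 calls, 6 held under all 13 alternative fits, and leaving out any 1 of the 6 libraries compared left 6 or 7 calls. Over all gene models the 179 calls in either direction became 84 to 122 without 1 library, or 191 without head replicate 3. The other 3 were near the threshold, with edgeR adjusted p of 0.0222, 0.0440 and 0.0447, and were lost in 4, 8 and 9 of the 13 fits. The members not called included gene models with large but poorly fixed values. Of these, 3 had log2 fold changes of 2.19 to 2.50 with SE of 0.67 to 0.88, on at most 15 estimated counts in any foot library.

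At the other end stood members that lost the difference. One was g30442, whose untreated 12 h libraries held 442, 323 and 253 CPM in head and 70.5, 106 and 76.2 CPM in foot. In iCRT14 it held 137, 151 and 190 CPM in head and 134, 136 and 165 CPM in foot. The sides overlapped, with the head level lower and the foot level higher than untreated, and 6.78% of the difference stayed. The log2 fold change in iCRT14 was 0.20 ± 0.17 (SE, n = 3 per side, edgeR adjusted p = 0.622).

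Another was g5147, with 34.8, 18.7 and 20.5 CPM in untreated 12 h head libraries and 3.14, 8.80 and 4.06 CPM in foot. In iCRT14 it held 4.02, 3.41 and 7.39 CPM in head and 5.35, 2.87 and 6.20 CPM in foot. The sides overlapped in iCRT14, and 1.66% of the difference stayed. A member whose order of means turned was g22427. Its untreated 12 h libraries overlapped, at 2.97, 2.92 and 1.01 CPM in head and 0.662, 1.42 and 0.243 CPM in foot. In iCRT14 it held 0.720, 0.528 and 0.566 CPM in head and 1.34, 1.05 and 1.03 CPM in foot. Its log2 fold change of -0.85 ± 0.46 (SE, n = 3 per side) did not pass (edgeR adjusted p = 0.424), at levels close to 1 CPM.

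**Figure D4:**
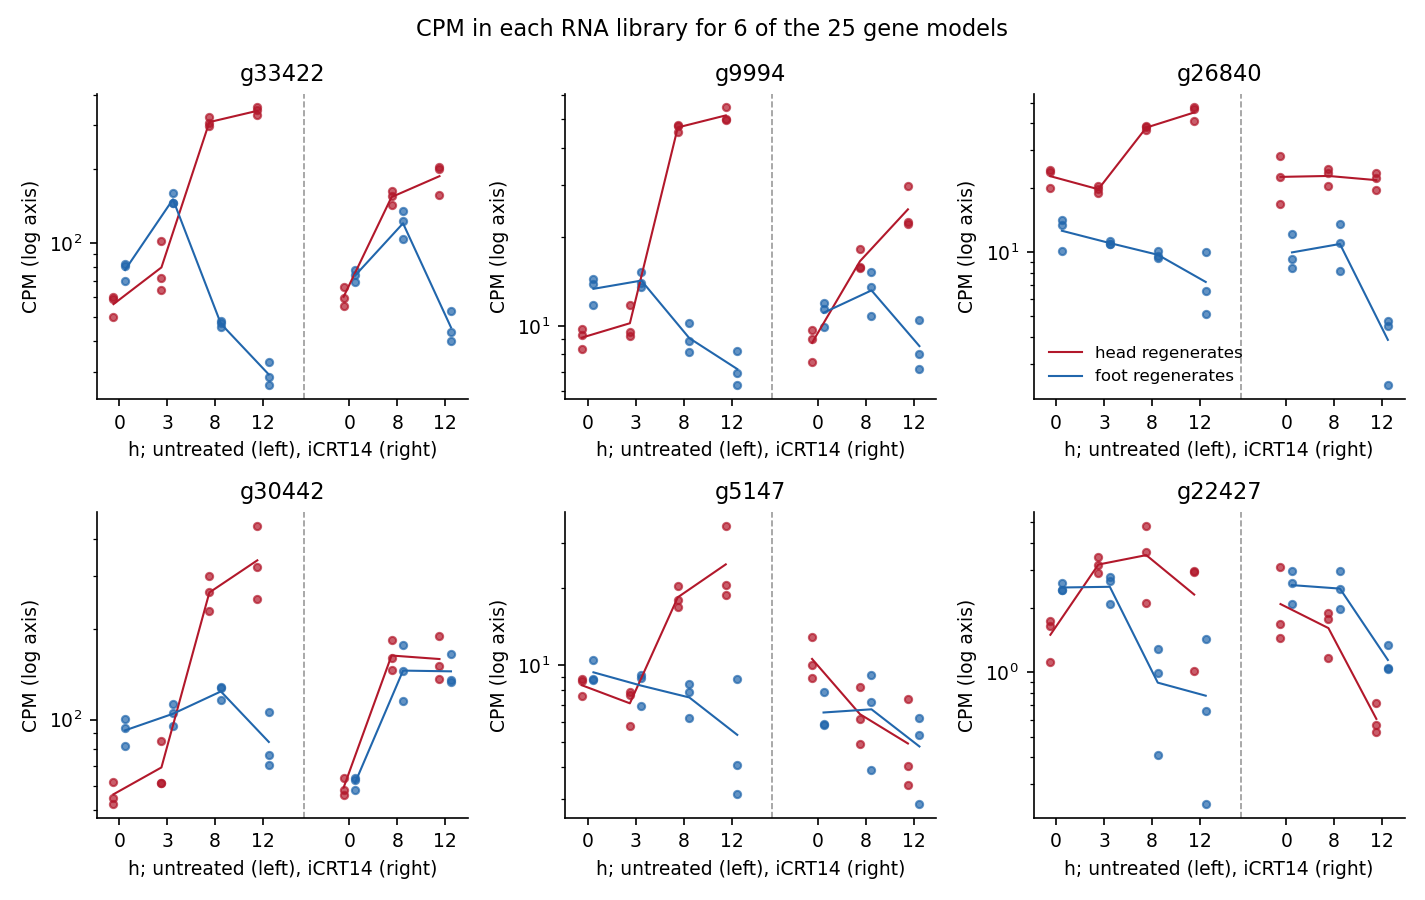
CPM (log axis) in every RNA library for 6 of the 25 gene models, in head (red) and foot (blue) regenerates, with untreated times left and iCRT14 times right of the dashed line; points are libraries and lines join means of 3. In iCRT14 at 12 h head stays above foot for g33422, g9994 and g26840, the sides overlap for g30442 and g5147, and foot lies above head for g22427.

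At 8 h the difference in iCRT14 was smaller still. Its median was 0.17 L units, between -0.68 and 1.19, and 2 members reached 1 L unit, against 0.358% of the 15653 gene models. The 3 head libraries lay above the 3 foot libraries for 5 members, against 6.48% of gene models. Without foot replicate 3, which stood apart, the median was 0.13 L units, 3 members reached 1 L unit and 9 had all head libraries above the 2 foot libraries left. By edgeR 2 members were higher in head and 0 in foot, where 0.190% of all gene models tested were higher in head and 0.255% in foot, and at an unadjusted p under 0.05 the counts were 4 and 1. DESeq2 called 3 and 0, where over all gene models it called 56 higher in head and 84 in foot. The median log2 fold change was 0.14, against 0.00 over all gene models tested. The median share of the untreated 8 h difference was 13.0%, a ratio that sets KAPA libraries against TruSeq libraries.

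The 2 calls at 8 h were g6164 and g26840. For g6164 the iCRT14 8 h libraries held 54.5, 42.7 and 50.7 CPM in head and 17.5, 24.1 and 22.4 CPM in foot, with no overlap. The log2 fold change was 1.17 ± 0.20 (SE, n = 3 per side, edgeR adjusted p = 0.00309) and the call held in every alternative fit. The call of g26840 (1.04 ± 0.22, SE, n = 3 per side, edgeR adjusted p = 0.0289) was lost in 7 alternatives, so that 1 call was left without any 1 of the libraries compared other than foot replicate 1. By contrast g33422 held 143, 154 and 163 CPM in head and 134, 123 and 103 CPM in foot at 8 h in iCRT14. Its sides did not overlap there but lay close, with a ratio of means of 1.28 where the untreated 8 h ratio was 6.60.

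**Figure D5:**
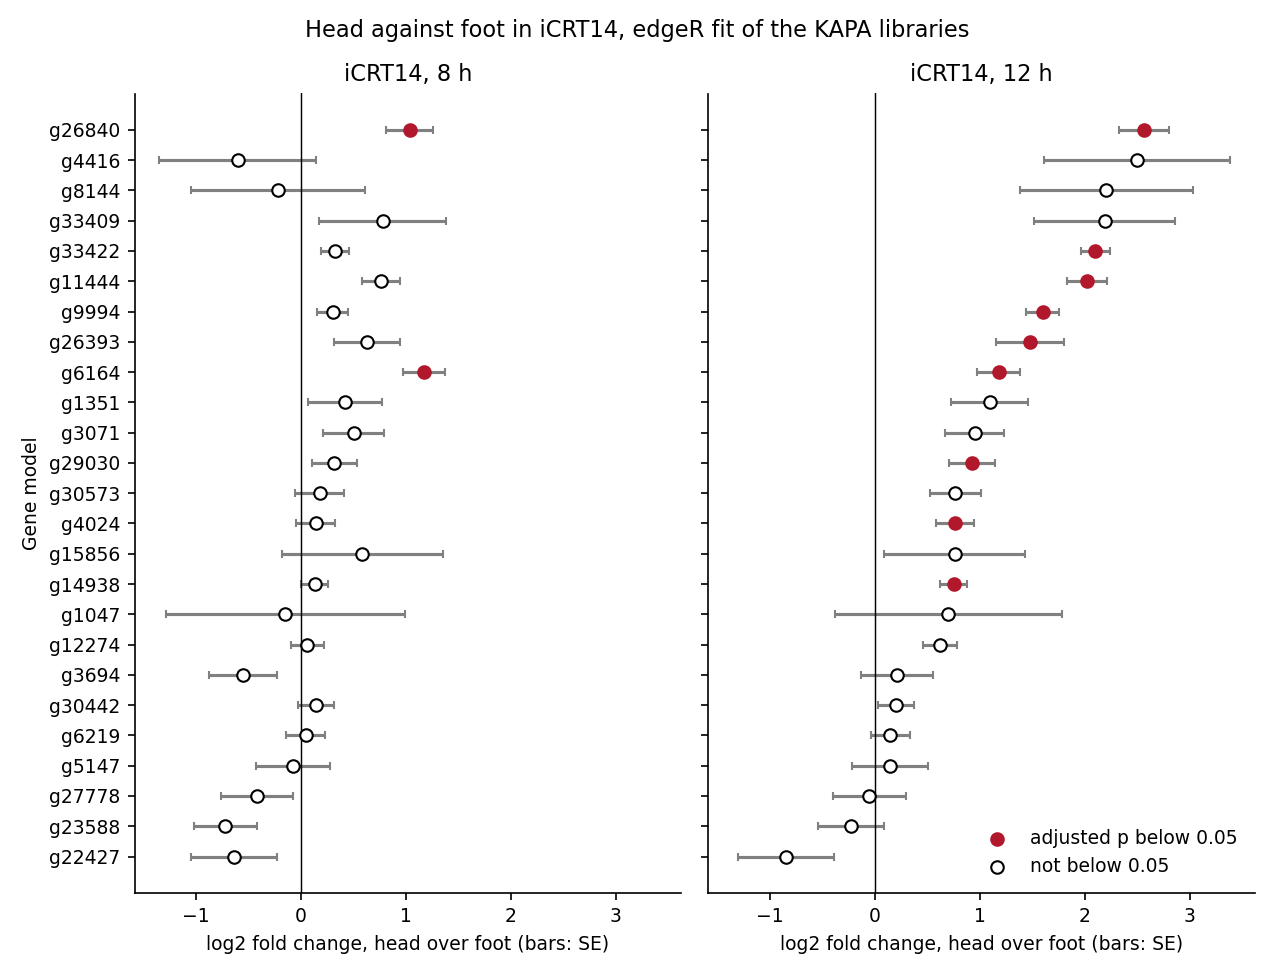
log2 fold change of head over foot in iCRT14 at 8 h (left) and 12 h (right) for the 25 gene models, from edgeR; bars are 1 SE, n = 3 libraries per side, filled points passed an adjusted p of 0.05 over 19989 gene models. At 8 h 2 points are filled and at 12 h 9 are filled, and gene models are ordered by the 12 h value.

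At 0 h in iCRT14 the median difference was -0.05 L units, between -1.24 and 1.49. By edgeR 2 members differed, both higher in head, where 0.595% of all gene models tested differed in either direction and 0.340% were higher in head, and at an unadjusted p under 0.05 6 members were higher in head and 5 in foot. DESeq2 called 2 in each direction, where over all gene models it called 738 higher in head and 688 in foot. The calls were g26840 (1.12 ± 0.22, SE, n = 3 per side, edgeR adjusted p = 0.0200) and g1351 (2.10 ± 0.46, edgeR adjusted p = 0.0331). Leaving out 1 library brought the count to 0 (without foot replicate 1, foot replicate 2 or head replicate 3) or to 1. It was 7 in a fit of all 42 libraries and 13 of 21 tested in a fit of the 0 h groups alone, where calls over all gene models rose from 119 to 3602 and 4878. The iCRT14 0 h head and foot libraries stood apart over many gene models. All 3 head libraries lay above all 3 foot libraries for 28.6% of the 15653, and for 6 of the 25 members, while 7 members had foot above head. The part of this in the comparisons against 0 h below was not tested.

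From 0 h to 12 h in iCRT14, members changed in both directions. In head regenerates 12 members rose, against 13.3% of all gene models tested, and 2 fell, against 15.7%. By adjusted p the strongest rises were of g33422, by 1.81 ± 0.14 on the log2 scale (SE, n = 3 per time, edgeR adjusted p = 6.74e-10), and g9994, by 1.70 ± 0.15 (edgeR adjusted p = 1.47e-08). The falls were those of g22427, which fell by 1.61 ± 0.44 (edgeR adjusted p = 0.00897), and g6164, which fell by 0.57 ± 0.20 (edgeR adjusted p = 0.0354) and whose call was lost in 7 alternatives. The median of the 25 was 0.88, against -0.05 over all gene models tested. Scaled by library totals alone, the same 12 members were counted as risen, while the calls over all gene models moved from 2657 higher and 3131 lower to 1757 higher and 4627 lower, and their median to -0.24.

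In foot regenerates 4 members rose, against 14.0% of all gene models tested, and 8 fell, against 12.9%. The median was -0.38, against 0.04 over all gene models tested. By adjusted p the falls were led by g11444, which fell by 2.10 ± 0.19 on the log2 scale (SE, n = 3 per time, edgeR adjusted p = 1.38e-08) from 59.0, 57.3 and 63.8 CPM to 14.9, 10.3 and 15.1 CPM. By adjusted p the rises were led by g30573, by 2.09 ± 0.28 (edgeR adjusted p = 5.53e-06), and g30442, by 1.30 ± 0.17 (edgeR adjusted p = 6.92e-06). All 4 members that rose in foot rose in head as well. For 1 of the 4 rises the 3 foot libraries held 0 counts at 0 h, and with its change put at the bound set by 3 counts over the group the median did not move from -0.38.

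The change from 0 h to 12 h differed between the sides for 7 members, in each case in favour of head, against 5.45% of all gene models tested with a difference of that sign and 5.47% with the opposite one. The median of this difference was 0.70 on the log2 scale, against -0.12 over all gene models tested. Scaled by library totals alone 7 members were again called, while the calls over all gene models moved from 1089 positive and 1094 negative to 797 positive and 1329 negative. By adjusted p the strongest were g33422, with 2.45 ± 0.19 (SE, 3 libraries per group, edgeR adjusted p = 1.63e-07), and g9994, with 2.01 ± 0.22 (edgeR adjusted p = 4.41e-05). The members' count fell to 4 without head 0 h replicate 2, foot 12 h replicate 2 or foot 12 h replicate 3, and to 5 without head 12 h replicate 1 or 2. The calls over all gene models, 2183 in either direction, fell much further in these 5 fits, to between 19 and 24. They were 344 to 845 without any 1 foot 0 h library, 381 without head 0 h replicate 3, 1464 without head 0 h replicate 1, 1747 without foot 12 h replicate 1 and 3640 without head 12 h replicate 3. In these fits 6 to 10 members were called. The background of this comparison thus depended on single libraries.

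Whether iCRT14 narrowed the 12 h difference could be tested on gene models that no 12 h library had chosen. Without its 12 h condition the rule gave 51 gene models, the 25 members and 26 others. Their median difference at 12 h was 0.95 L units untreated and 0.58 in iCRT14. For 5 of the 51 the untreated difference was larger than that in iCRT14 (edgeR, side by treatment), and it was smaller for 0, where 0.175% of all gene models tested had a larger untreated difference and 0.0300% a smaller one. At an unadjusted p under 0.05 the difference was larger untreated for 21 of the 51 and smaller for 3, and DESeq2 called 11 and 0. Over all gene models DESeq2 called 65 larger untreated and 15 smaller. All 5 were members, which a wide untreated 12 h difference defines, and 0 of the 26 others passed.

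Values of the 5 are given as a description, since as members they also met the untreated 12 h condition. The strongest was g12274, with 63.4, 57.5 and 73.0 CPM in untreated 12 h head libraries and 11.2, 10.7 and 8.43 CPM in foot. In iCRT14 it held 24.4, 22.8 and 26.5 CPM in head and 19.5, 15.9 and 15.1 CPM in foot, so that the sides came closer without overlapping. The difference between the head-foot differences was 2.16 ± 0.23 on the log2 scale (SE, 3 libraries per group). For g33422 it was 1.55 ± 0.19, although that gene model remained among the calls between the sides within iCRT14. The other 3 had differences of 1.30 to 1.92.

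Among the members, 4 had all 3 untreated head libraries above all 3 foot libraries already at 0 h, by 0.12 to 0.87 L units of difference. Another member had a wider 0 h difference, 0.96 L units, with overlapping libraries, and 13 of the 25 had a difference above 0. All 3 foot libraries lay above all 3 head libraries for 5 members. The share of all gene models with separated libraries was not counted for untreated 0 h. The 4 members with all head libraries above foot at 0 h kept a median of 95.6% of the 12 h difference in iCRT14, between 67.6% and 112%. Of these 4, 3 were among the 9 calls at 12 h. The other 21 kept a median of 35.7%, between -50.2% and 113%, with 6 calls. These subgroups were formed after the values had been seen and their difference was not tested. When only the difference gained since 0 h was counted, in untreated and iCRT14 libraries alike, the median share over the 25 was 29.1%.

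Beside the members stood 2 lists made by the same kind of rule. A first held 25 gene models that met the side conditions but had risen by at least 0.7 L units from 0 h to 3 h on both sides. Its median share of the 12 h difference in iCRT14 was 15.1%, and 3 of its 25 were higher in head by edgeR, where 0.465% of all gene models tested were. In head regenerates these gene models were a median of 0.90 L units higher in iCRT14 than untreated at 12 h, and in foot regenerates 1.94 higher, where the late members were 1.04 lower in head and 0.25 higher in foot. A second, the mirror rule for foot, held 22 gene models with a median share of 65.3%, of which 7 were higher in foot by edgeR, where 0.430% of all gene models tested were. This second list started from an unlike point. Its median head minus foot difference at untreated 0 h was already -0.52 L units, with 19 of the 22 below 0, where the members' median was 0.00. All 3 lists were chosen on untreated libraries, and the differences between them were not tested.

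Gene models lay near the 12 h threshold on both sides. Just inside it lay g27778 at 1.05, g6164 at 1.11 and g6219 at 1.12 L units. Just outside lay gene models at 0.95, 0.87 and 0.86 L units. At 8 h the nearest members stood at 1.01, 1.02 and 1.04 L units and the nearest others at 0.94, 0.92 and 0.90.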

How the data were processed

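RNA from 42 libraries (14 groups of 3) was analysed. The deposited table holds expected counts per gene model, of which 24.8% are not whole numbers; per the submitters' processing notes, Trimmomatic 0.36, Bowtie2 and RSEM 1.2.31 were among the tools used, and the genome build and gene annotation are not given in the sources used here. The labels call the libraries biological replicates. No pair of libraries of a group agreed within sampling noise (lowest chi-square per degree of freedom 2.39 over 42 pairs), and a further 71 accessibility (ATAC) libraries were not used here, since no file places these gene models on their scaffolds.

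Members and lists were chosen with earlier results of these data known. Means and differences were computed as described with the members. For tests, expected counts were rounded to whole numbers and fitted with edgeR 4.0.16 (R 4.3.3; quasi-likelihood test, two-sided, TMM scaling, filterByExpr by group, Benjamini-Hochberg adjustment over 19989 gene models, threshold 0.05). The fit took the 24 KAPA libraries, since spread differed between kits and every tested library is of that kit. The fit was tested on simulated data. Alternatives were all 42 libraries, only the groups compared, DESeq2 1.42.0, other scaling, no filter, a replicate block, and each library left out in turn; for the member rule and the share they were other pseudocounts, CPM minima and scaling.

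Gene models named in the text come from a rule: the 10 widest untreated and the 5 widest and 5 narrowest iCRT14 differences at 12 h, the 3 highest levels and those next to the 12 h limit. Of these only a few per comparison are printed, because identifiers without names tell a reader little. The gene models called at 8 h and 0 h in iCRT14, and those leading the changes over time, lie partly outside that rule (g1351, g30573) and were chosen after their values were seen. The p-values set a difference between groups against the spread between libraries within groups, as estimated in the fit.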

Additional observations from a re-analysis of the deposited data

Results flagged for a closer look

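In iCRT14 the change from 0 h to 12 h differed between head and foot regenerates for 7 members by edgeR's side by time test, each in favour of head, with n = 3 libraries per group. Over all gene models tested 5.45% had such a difference, but with 1 library left out calls in either direction ran from 19 to 3640, against 2183. On the log2 scale the difference was 2.45 for g33422, 2.01 for g9994, 2.31 for g11444 and 1.08 for g14938. It was 2.44 for g26393, 1.44 for g26840 and 4.70 for g4416, and these 3 calls were lost in 3, 5 and 6 of the alternative fits. For g4416 the foot libraries at 12 h in iCRT14 held 3, 1 and 4 estimated counts. In untreated animals no such test was made, since those libraries chose the members.

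Among the 51 gene models chosen without a 12 h condition, the head-foot difference at 12 h differed between untreated and iCRT14 libraries for 5 by edgeR's side by treatment test, each with the larger difference in untreated animals. Over all gene models tested 0.175% had a larger untreated difference and 0.0300% a smaller one. All 5 are members, which were chosen by a wide untreated 12 h difference, and 0 of the 26 others passed.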

How the results depend on the processing

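Counts of members rising from 0 h to 12 h in iCRT14 stayed between 11 and 12 in head and 4 and 5 in foot under all alternatives, and that of members higher in head at 12 h between 6 and 12 (6 to 7 with 1 library left out). The median share kept was 42.7% with a pseudocount of 1, 44.2% without the 12 h condition and, for the gain since 0 h (an alternative chosen after seeing the data), 29.1%; with 1 library left out it ran from 35.8% to 40.7%. Without the 4 members whose untreated head libraries all lay above foot at 0 h (also added later) it was 35.7%, with 6 calls. The rule gave 34 members with a pseudocount of 0.1 (24 of the 25 among them), 19 with a pseudocount of 1 (18 among them) and 21 to 29 with 1 library left out. At 8 h 1 member was called with library totals alone and 1 to 2 with 1 library left out. At 0 h the count was 7 with all 42 libraries, 13 with only the groups compared, 4 with DESeq2, 1 with the replicate block and 0 to 1 with 1 library left out. The side by time count ran from 4 to 10 with 1 library left out. The side by treatment count was 13 with all 42 libraries and 11 with DESeq2, and 5 to 7 with 1 library left out. The cause of these moves was not tested. For single members, 868 outcomes kept their side of the threshold, 64 lost a call, 8 gained one and 0 reversed. This tally took all members only for head against foot in iCRT14 at 12 h. For the other comparisons it took only members called in the fit of the 24 KAPA libraries. Calls gained there, such as those at 0 h, are therefore not in it.

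Over all gene models, calls between the sides in iCRT14 at 12 h numbered 179, against 839 with all 42 libraries, 296 with only the groups compared and 313 with DESeq2. At 8 h they numbered 89, against 216, 53 and 140. At 0 h they numbered 119, against 3602, 4878 and 1426, and 484 without a filter. Side by time gave 2183, against 5156, 4574 and, with DESeq2, 3210. Side by treatment gave 41, against 130, 21 and 80. With 1 library left out the ranges were 84 to 191 at 12 h, 54 to 97 at 8 h, 31 to 61 at 0 h, 19 to 3640 for side by time and 24 to 49 for side by treatment.

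Whether replicate numbers pair the libraries could not be settled with 3 libraries per group. Deviations of same-numbered head and foot libraries correlated between -0.261 and 0.0509. In iCRT14 at 0 h and 12 h every library correlated best with its own number, and at 8 h and in untreated 12 h libraries this did not hold. With the replicate block 7 members were called higher in head at 12 h, 2 at 8 h, 12 and 4 rose in head and foot, 7 differed by side and time, and 5 of the 51 by side and treatment.

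Gene models below 1 CPM rest on few counts and were poorly resolved. Accessibility near the members was not analysed here.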
